A study of Arabidopsis thaliana with 4 samples.

Results

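The Arabidopsis thaliana aquaporin family was followed gene by gene in whole seedlings that overexpress the bHLH (basic helix-loop-helix) transcription factor HBI1. The family was taken by locus: 35 genes of the 33518 loci in the read count tables, made up of 13 PIP, 10 TIP, 9 NIP and 3 SIP genes. Every locus was found in the tables. Gene names follow the systematic names with a hyphen in place of the semicolon (PIP2-1). One TIP gene, AT1G17810, carries only the name BETA-TIP in the RefSeq annotation and is called by it.

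The HBI1-Ox group held 2 libraries of the line 35S::HBI1-YFP. In it HBI1 is joined to a yellow fluorescent protein and driven by the viral 35S promoter, which is strong and active in nearly every plant tissue. The Col-0 group held 2 libraries of the wild type. All seedlings were 5 days old and had been kept in constant light on diluted MS medium, and the labels name no other treatment. One overexpressing line was set beside Col-0, so the level of HBI1 and any other difference of that line cannot be told apart. Whether both libraries of a group came from separately grown seedlings is not in the labels. The p-values rest on the spread between these 4 libraries alone, and that spread may be technical.

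Aquaporins are membrane channels that let water, and in some members small uncharged solutes such as hydrogen peroxide, ammonia, boric acid or arsenite, pass along their gradients. PIPs sit mainly in the plasma membrane, TIPs in the tonoplast around the vacuole, NIPs in several membranes and SIPs in the endoplasmic reticulum. PIP2 proteins are strong water channels on their own, and PIP1 proteins often reach the plasma membrane together with PIP2 partners. In growing seedlings PIPs and TIPs carry much of the water that enters expanding cells and their vacuoles. HBI1 belongs to a group of bHLH factors that promote cell elongation. The comparison asks how the transcriptome differs between HBI1-Ox and the wild type.

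HBI1 itself (AT2G18300, chromosome 2, 7952404 to 7954785, minus strand) had 1567 and 1509 CPM in HBI1-Ox libraries 1 and 2, against 99.3 and 84.6 CPM in Col-0 libraries 1 and 2. CPM are the usual depth-scaled counts, a gene's reads relative to the reads on all genes, here after TMM scaling, which sets the libraries to a common middle. The log2 change of HBI1 was 4.06 ± 0.09 (standard error), with an edgeR adjusted p of 1.70e-05. Here and below that is the p of the quasi-likelihood test in edgeR after Benjamini-Hochberg adjustment over all genes tested. Reads of the transgene and of the native gene are counted together here.

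Reads on genes came to 19647745 and 14981824 in the HBI1-Ox libraries and to 13068448 and 10785178 in the Col-0 libraries. The HBI1-Ox libraries lay closer together than the Col-0 libraries. A chi-square test of counts told 64 of 20127 nuclear genes apart between the HBI1-Ox libraries, against 2322 of 20074 between the Col-0 libraries (adjusted p under 0.05). It told apart 0 of 29 aquaporin genes in the HBI1-Ox pair and 11 of 28 in the Col-0 pair. These 11 were PIP1-2, PIP1-3, PIP1-4, PIP2-1, PIP2-6, PIP2-7, PIP2-8, TIP1-1, TIP2-1, TIP2-2 and TIP2-3. Counts of called genes are therefore also given after adding up both HBI1-Ox libraries.

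Of the 35 genes, 28 passed the filter on low counts and were tested. The edgeR adjusted p was under 0.05 for 12 genes that were higher in HBI1-Ox and for 2 that were lower, and 14 did not pass. Among all 20320 genes tested, 8.33% were called higher and 7.15% lower. The median log2 change was 0.20 over the 28 aquaporin genes and -0.01 over all tested genes. With total counts in place of TMM scaling the median of all genes moved to -0.16 and rises made up 22.2% of all calls, against 53.8% with TMM. The aquaporin count was then 9 higher and 3 lower. When the counts of both HBI1-Ox libraries were added into 1 sample, 2 aquaporin genes were called higher (PIP2-6 and TIP4-1) and 1 lower (NIP1-1), where 1.48% of all tested genes were called higher. The same 2 rises were called without HBI1-Ox library 1 or without HBI1-Ox library 2. The fall of NIP1-1 was called without library 2 and had an edgeR adjusted p of 0.0708 without library 1.

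Most calls lay among the abundant members. Of the 15 aquaporin genes whose mean reached 100 CPM, 11 were higher and 0 were lower, with a median log2 change of 0.35. Of all 1663 genes at or above that level, 28.6% were called higher and 8.66% lower, with a median of 0.12. Of the 13 tested members under 100 CPM, 1 was higher and 2 were lower, with a median of -0.12. The split at 100 CPM was chosen after the values were seen.

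The family as a whole took 1.502% and 1.525% of the reads on genes in the HBI1-Ox libraries, against 1.326% and 1.256% in the Col-0 libraries. The summed level was 15964 ± 129 CPM in HBI1-Ox and 12271 ± 734 CPM in Col-0 (SD, n = 2 each), a ratio of 1.30. That ratio depends on the TMM factors, 0.947 and 0.951 in HBI1-Ox and 1.038 and 1.070 in Col-0. The shares of reads do not include them, and their means were closer, 1.514% in HBI1-Ox and 1.291% in Col-0. The groups did not overlap. With 2 libraries against 2 an exact permutation test cannot go below p = 0.333, so sums were given without a test. In bulk seedlings fewer cells of a type and less RNA per cell cannot be told apart.

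**Figure D1:**
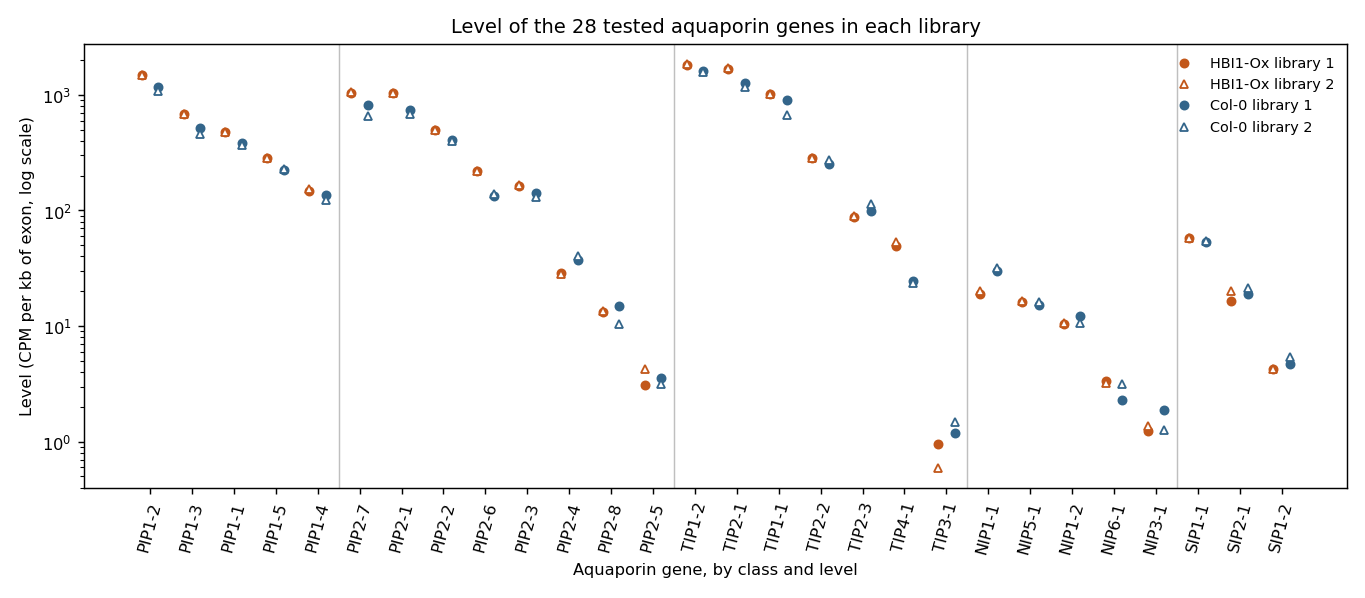
Level of each of the 28 tested aquaporin genes in each library, in CPM per kb of exon on a log axis, ordered by class and by level. The 7 genes left out by the filter are not shown. Each point is 1 library, HBI1-Ox and Col-0 in separate colours. The abundant genes are PIPs and TIPs, led by TIP1-2, TIP2-1 and PIP1-2, while NIPs and SIPs lie far below them.

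The genes spanned a wide range of levels. Levels are compared between genes as CPM per kb of exon, since longer transcripts give more reads. TIP1-2 had the highest mean level over the 4 libraries at 1710 CPM per kb, which placed it 34th among all genes. TIP2-1 followed with 1457 and PIP1-2 with 1311 CPM per kb. Next came TIP1-1 with 902, PIP2-7 with 892 and PIP2-1 with 872 CPM per kb. The most abundant NIP gene, NIP1-1, averaged 25.2 CPM per kb, and the most abundant SIP gene, SIP1-1, averaged 56.2. By this measure PIPs made up 54.5% of the family's level in HBI1-Ox and 52.2% in Col-0, and TIPs 44.3% in HBI1-Ox and 46.1% in Col-0. NIPs made up 0.461% in HBI1-Ox and 0.734% in Col-0, and SIPs 0.719% in HBI1-Ox and 0.918% in Col-0. PIPs and TIPs thus held nearly all of the family's level in both groups.

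Among the 5 PIP1 genes, 4 were called higher in HBI1-Ox and 0 lower, and their median log2 change was 0.35. All 5 had both HBI1-Ox libraries above both Col-0 libraries, as had 29.7% of all tested genes and 56.1% of those at or above 100 CPM, a level all 5 reach. At that level 28.6% of all genes were called higher. The summed PIP1 level was 4867 ± 7.05 CPM in HBI1-Ox and 3712 ± 198 CPM in Col-0 (SD, n = 2 each), a ratio of 1.31. None of the 4 calls was made with the HBI1-Ox libraries summed or with either of them left out, where edgeR adjusted p-values ran between 0.116 and 0.204.

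PIP1-2 (AT2G45960, chromosome 2, 18910081 to 18911982, plus strand), a water channel abundant in leaves and roots, had 2383 and 2382 CPM in the HBI1-Ox libraries and 1884 and 1729 CPM in the Col-0 libraries. Both HBI1-Ox libraries lay above both Col-0 libraries, with a log2 change of 0.40 ± 0.06 and an edgeR adjusted p of 0.0068. The 250 bases before its annotated start hold 2 E-boxes. An E-box is CANNTG, the core that bHLH factors bind, and reads the same on both strands. They stand in capitals in the TAIR10.1 sequence, chr2:18909831-18910080, plus strand, shown for an abundant gene with E-boxes in this window.
PIP1-2: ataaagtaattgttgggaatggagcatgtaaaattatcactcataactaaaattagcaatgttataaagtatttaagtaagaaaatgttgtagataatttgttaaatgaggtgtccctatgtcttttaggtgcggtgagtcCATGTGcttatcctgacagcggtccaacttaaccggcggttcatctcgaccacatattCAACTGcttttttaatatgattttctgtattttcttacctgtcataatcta

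PIP1-3 (AT1G01620) had the strongest change of the class. It had 1057 and 1064 CPM in the HBI1-Ox libraries and 802 and 715 CPM in the Col-0 libraries, a log2 change of 0.48 ± 0.07 with an edgeR adjusted p of 0.0060. PIP1-1 (AT3G61430) had 749 and 744 CPM in HBI1-Ox, against 594 and 576 CPM in Col-0. Its log2 change was 0.35 ± 0.05 (edgeR adjusted p = 0.0071). Both are plasma membrane channels found in roots and shoots, and in both the gap between groups was wider than the gap within either group.

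PIP1-5 (AT4G23400) had 377 and 377 CPM in the HBI1-Ox libraries and 297 and 306 CPM in the Col-0 libraries, a log2 change of 0.32 ± 0.05 with an edgeR adjusted p of 0.0112. With total counts in place of TMM scaling its edgeR adjusted p was 0.0653. PIP1-4 (AT4G00430), which also passes hydrogen peroxide, was the one PIP1 gene that was not called. It had 296 and 304 CPM in HBI1-Ox and 274 and 247 CPM in Col-0, so the groups did not overlap, and its log2 change was 0.20 ± 0.07 with an edgeR adjusted p of 0.0964. It was called when either Col-0 library was left out, with 0.29 in the absence of library 1 and 0.13 in the absence of library 2.

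PIP1 genes encode proteins that are much alike. Reads are assigned by nucleotide sequence, in which the compared pairs were less alike. The annotated proteins of PIP1-3 and PIP1-4 were 97.6% identical and their coding sequences 85.2%. Coding sequences of PIP1-1 and PIP1-3 were 81.65% identical and those of PIP1-3 and PIP1-5 79.8%. PIP1-1, PIP1-4 and PIP1-5 could be linked through PIP1-3 at 95% protein identity or more. PIP1-1 and PIP1-2, with 89.5% of the protein and 87.6% of the coding bases identical, were not joined. The grouping thus followed proteins and not how hard reads are to tell apart. Counts of the 4 linked genes were summed into 1 row. That row had a log2 change of 0.38 ± 0.05 with an edgeR adjusted p of 0.0059.

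Of the 8 PIP2 genes, 5 were called higher and 1 lower, and 2 did not pass. Each of the 5 lay at or above 100 CPM, where 28.6% of all genes were called higher. Among all tested genes 7.15% were called lower. The median log2 change was 0.30. The summed PIP2 level was 4721 ± 59.5 CPM in HBI1-Ox and 3367 ± 250.3 CPM in Col-0 (SD, n = 2 each), a ratio of 1.40, the highest of the classes. PIP2-6 was called in every alternative, and the other PIP2 calls were not made with the HBI1-Ox libraries summed or with either of them left out (edgeR adjusted p between 0.0728 and 0.283).

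PIP2-6 (AT2G39010, chromosome 2, 16291280 to 16294101, plus strand), a plasma membrane water channel expressed in leaf veins, had 469 and 469 CPM in the HBI1-Ox libraries. In the Col-0 libraries it had 286 and 299 CPM. Its log2 change of 0.68 ± 0.05 was the highest of the PIP genes (edgeR adjusted p = 0.000885). The libraries of each group lay within a few percent of each other and the groups were far apart. The chi-square test of counts nevertheless told the Col-0 libraries apart for PIP2-6. The 250 bases before its start, TAIR10.1 chr2:16291030-16291279, plus strand, hold no E-box and so no capitals, and are shown as the window of the called PIP gene with the highest change.
PIP2-6: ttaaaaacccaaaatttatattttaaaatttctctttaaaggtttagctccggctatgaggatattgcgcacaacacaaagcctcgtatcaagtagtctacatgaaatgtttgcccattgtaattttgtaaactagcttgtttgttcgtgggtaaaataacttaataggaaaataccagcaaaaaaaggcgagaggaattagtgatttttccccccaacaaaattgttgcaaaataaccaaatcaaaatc

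PIP2-1 (AT3G53420, chromosome 3, 19803473 to 19805730, minus strand) is one of the main plasma membrane water channels of leaf and root and takes part in stomatal closure. It had 1620.5 and 1645 CPM in the HBI1-Ox libraries, against 1157 and 1067 CPM in the Col-0 libraries. The log2 change was 0.55 ± 0.06 (edgeR adjusted p = 0.0022). PIP2-7 (AT4G35100), also an abundant water channel, had 1657 and 1706 CPM in HBI1-Ox and 1302 and 1053 CPM in Col-0. Its log2 change was 0.51 ± 0.10 (edgeR adjusted p = 0.0187). The Col-0 libraries stood further apart for PIP2-7 than for PIP2-1, and neither gene had overlapping groups.

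PIP2-2 and PIP2-3 are neighbours on chromosome 2, head to head with 2612 bases between them, and both contribute to water uptake by roots. Their proteins were 96.8% identical. Their coding sequences differed at 45 of 858 aligned bases, and the longest run they shared was 242 bases. The first 120 coding bases are shown because they tell the copies apart: the 12 differing bases are in capitals. PIP2-2 is read from the minus strand at TAIR10.1 chr2:15614672-15614791 and PIP2-3 from the plus strand at chr2:15617779-15617898.
PIP2-2: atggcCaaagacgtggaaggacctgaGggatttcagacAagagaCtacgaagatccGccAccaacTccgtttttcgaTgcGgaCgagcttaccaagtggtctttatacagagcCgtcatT
PIP2-3: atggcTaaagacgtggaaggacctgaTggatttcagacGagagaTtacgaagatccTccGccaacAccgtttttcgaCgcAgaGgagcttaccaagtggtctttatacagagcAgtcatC

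PIP2-2 (AT2G37170) had 666 and 674 CPM in the HBI1-Ox libraries and 543 and 532 CPM in the Col-0 libraries, a log2 change of 0.32 ± 0.05 with an edgeR adjusted p of 0.0101. PIP2-3 (AT2G37180), first described as RD28, a gene responsive to desiccation, had 201 and 202 CPM in HBI1-Ox, against 173 and 159 CPM in Col-0. Its log2 change was 0.28 ± 0.06 with an edgeR adjusted p of 0.0323, and 0.147 under total counts. The sources used here do not give how reads matching both copies were assigned, so the split between them is uncertain. Their summed count had a log2 change of 0.31 ± 0.05 and an edgeR adjusted p of 0.0118.

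PIP2-4 was the PIP gene that fell. PIP2-4 (AT5G60660, chromosome 5, 24375368 to 24377206, minus strand), known mostly from roots, had 41.6 and 40.8 CPM in the HBI1-Ox libraries and 54.2 and 58.9 CPM in the Col-0 libraries. Both HBI1-Ox libraries lay below both Col-0 libraries, with a log2 change of -0.46 ± 0.07 and an edgeR adjusted p of 0.0086. PIP2-5 (AT3G54820), with 5.54 and 7.59 CPM in HBI1-Ox and 6.35 and 5.64 CPM in Col-0, and PIP2-8 (AT2G16850), with 19.7 and 19.8 CPM in HBI1-Ox and 21.9 and 15.5 CPM in Col-0, had overlapping groups. Neither passed the test (edgeR adjusted p = 0.748 and 0.794).

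**Figure D2:**
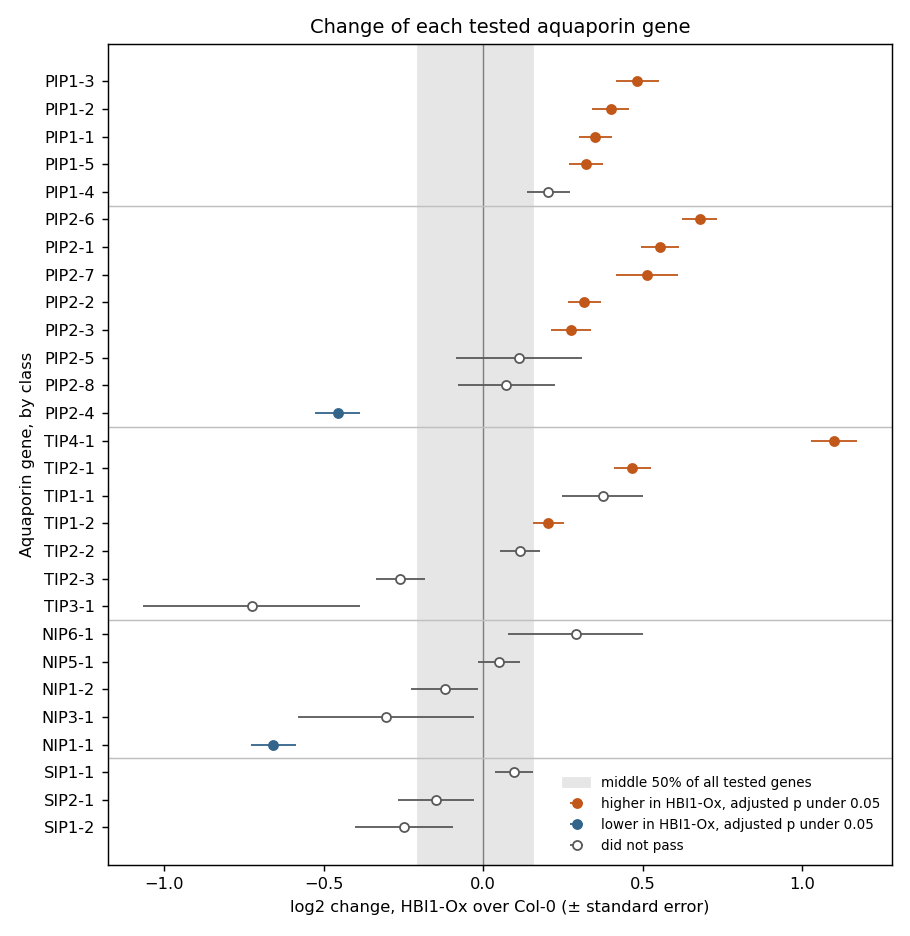
log2 change of HBI1-Ox over Col-0 for the 28 tested aquaporin genes, grouped by class, with bars for the standard error and a grey band between the quartiles of all tested genes. Filled points passed the test: 12 genes lie to the right, led by TIP4-1 at 1.10, and PIP2-4 and NIP1-1 lie to the left.

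Of the 10 TIP genes, 7 were tested, and 3 of these were called higher and 0 lower. Among all tested genes 8.33% were called higher, and 28.6% of those at or above 100 CPM. TIP1-1, TIP1-2, TIP2-1, TIP2-2 and TIP2-3 reach that level, and of these TIP1-2 and TIP2-1 were called. The median log2 change was 0.20 over the 7 tested. The summed TIP level was 6186 ± 57.4 CPM in HBI1-Ox and 4987 ± 292 CPM in Col-0 (SD, n = 2 each), a ratio of 1.24. TIP4-1 was called in every alternative. TIP2-1 and TIP1-2 were not called with the HBI1-Ox libraries summed or with either left out (edgeR adjusted p between 0.106 and 0.422).

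TIP4-1 (AT2G25810, chromosome 2, 11012499 to 11014171, plus strand), a tonoplast water channel, had 58.4 and 62.7 CPM in the HBI1-Ox libraries, against 28.9 and 27.5 CPM in the Col-0 libraries. The log2 change of 1.10 ± 0.07 was the highest of the family (edgeR adjusted p = 0.000411), and the level in HBI1-Ox was 2.15 times that in Col-0. It was also the one member under 100 CPM that was called higher. Its window before the start, TAIR10.1 chr2:11012249-11012498, plus strand, holds 1 E-box in capitals, which begins 8 bases before the start, and is shown because this gene changed most.
TIP4-1: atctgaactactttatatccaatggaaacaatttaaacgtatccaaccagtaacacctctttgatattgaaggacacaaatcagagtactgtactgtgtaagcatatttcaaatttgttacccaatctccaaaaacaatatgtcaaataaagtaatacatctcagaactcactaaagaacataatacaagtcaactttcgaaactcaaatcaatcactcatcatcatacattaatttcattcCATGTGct

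TIP2-1 (AT3G16240), also called delta-TIP, passes water and ammonia. It had 1998 and 2025 CPM in the HBI1-Ox libraries and 1509.8 and 1398 CPM in the Col-0 libraries, a log2 change of 0.47 ± 0.06 with an edgeR adjusted p of 0.0035. A long non-coding RNA gene on the opposite strand overlaps 445 bases of it and a protein-coding gene 120 bases. The sources used here do not give the strand setting of the counting, so reads of these genes may not be told apart.

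TIP1-2 (AT3G26520), the most abundant member per length, had 2344 and 2379.8 CPM in HBI1-Ox and 2082 and 2017 CPM in Col-0. Its log2 change of 0.20 ± 0.05 was the smallest that passed (edgeR adjusted p = 0.0361), and under total counts it was 0.05 with an edgeR adjusted p of 0.343. TIP1-1 (AT2G36830), also called gamma-TIP and a marker of vacuoles in growing cells, had 1251 and 1269 CPM in HBI1-Ox and 1113 and 831 CPM in Col-0. Its Col-0 libraries stood well apart. The log2 change of 0.37 ± 0.13 did not pass (edgeR adjusted p = 0.101). It came to 0.61 when Col-0 library 1 was left out and to 0.18 when Col-0 library 2 was, and was called both times.

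TIP2-2 (AT4G17340) and TIP2-3 (AT5G47450), close relatives of TIP2-1, were not called. TIP2-2 had 388 and 384 CPM in HBI1-Ox and 341 and 371 CPM in Col-0, with a log2 change of 0.12 ± 0.06 (edgeR adjusted p = 0.267). TIP2-3, an ammonia and water channel known from roots, had 104 and 105 CPM in HBI1-Ox and 117 and 133 CPM in Col-0. Its groups did not overlap, and the log2 change of -0.26 ± 0.08 did not pass (edgeR adjusted p = 0.0674). It was -0.41 with an edgeR adjusted p of 0.0165 under total counts. Leaving out either Col-0 library also made TIP2-3 a call, at -0.34 for library 1 and -0.16 for library 2. TIP2-2 was 0.07 and not called when Col-0 library 1 was left out, and 0.18 and called when library 2 was. The differences between TIP2-1 and its relatives were not tested.

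TIP3-1 (AT1G73190) and BETA-TIP (AT1G17810) belong to the vacuoles of seeds. TIP3-1 had 21 and 10 reads in the HBI1-Ox libraries and 19 and 20 reads in the Col-0 libraries (log2 change -0.73 ± 0.34, edgeR adjusted p = 0.207). BETA-TIP had 14 and 8 reads in HBI1-Ox and 4 and 13 reads in Col-0 and was left out by the filter. Genes on the opposite strand overlap 290 bases of TIP3-1, and 564 (a long non-coding RNA gene) and 91 bases of BETA-TIP, so whose reads these are is uncertain. The 5 seed storage markers were also low, with summed levels of 16.6 and 19.0 CPM in HBI1-Ox and 17.5 and 22.7 CPM in Col-0. Of the 4 tested 1 was lower, the seed peroxiredoxin gene PER1 (log2 change -1.55 ± 0.22, edgeR adjusted p = 0.0063), as were 7.15% of all tested genes. When HBI1-Ox library 1 was left out 0 seed markers were called, and when Col-0 library 2 was left out 1 was called higher and 1 lower. TIP1-3 (AT4G01470) had 0 and 2 reads in HBI1-Ox and 0 and 0 in Col-0, and TIP5-1 (AT3G47440) had 0 reads in every library. Both are known from pollen. A count of 0 allows up to 3 reads.

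**Figure D3:**
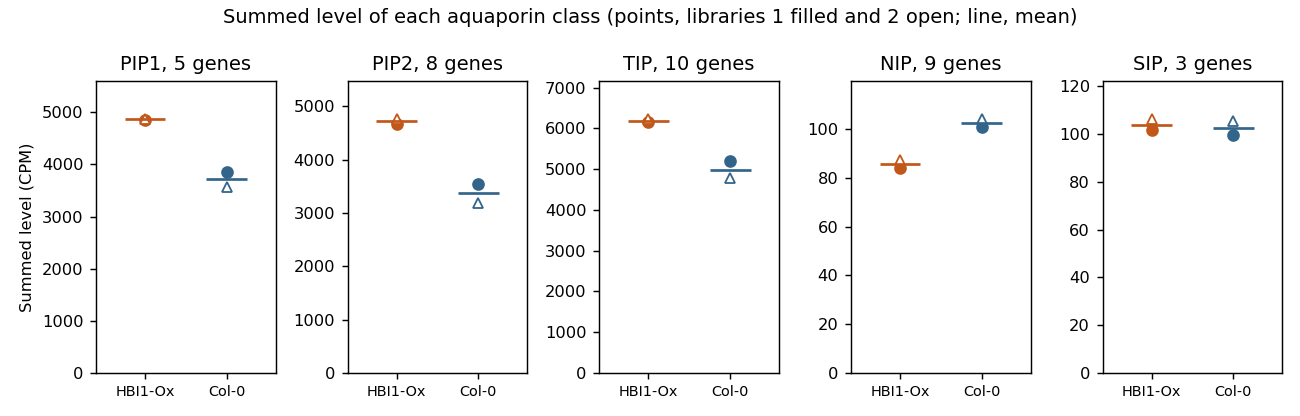
Summed level of PIP1, PIP2, TIP, NIP and SIP genes in CPM, 1 panel per class with its own axis from 0, HBI1-Ox left of Col-0. Each point is 1 library (library 1 filled, library 2 open) and each line a group mean. PIP1, PIP2 and TIP sums stand higher in HBI1-Ox, the NIP sum stands lower (means of 85.7 CPM in HBI1-Ox and 102.7 CPM in Col-0) and the SIP sums overlap.

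Of the 9 NIP genes, 5 were tested, 0 were called higher and 1 lower, against 8.33% higher and 7.15% lower among all genes tested. By an unadjusted edgeR p under 0.05, by DESeq2 and by limma-voom the NIP counts were also 0 higher and 1 lower. The median log2 change was -0.12. The summed level was 85.7 ± 2.28 CPM in HBI1-Ox and 102.7 ± 2.26 CPM in Col-0 (SD, n = 2 each), a ratio of 0.834. HBI1-Ox minus Col-0 was -17.0 CPM for the class sum and -16.4 CPM for NIP1-1 alone.

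NIP1-1 (AT4G19030, chromosome 4, 10421521 to 10423508, minus strand), a channel that lets arsenite and antimonite into roots, had 27.5 and 29.3 CPM in the HBI1-Ox libraries. In the Col-0 libraries it had 43.3 and 46.4 CPM. The groups lay well apart, with a log2 change of -0.66 ± 0.07 and an edgeR adjusted p of 0.0024. NIP5-1 (AT4G10380), the boric acid channel of roots, had 34.8 and 35.9 CPM in HBI1-Ox and 33.1 and 35.3 CPM in Col-0. Its log2 change was 0.05 ± 0.07 (edgeR adjusted p = 0.662) and its groups overlapped.

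The other tested NIP genes were NIP1-2 (AT4G18910), NIP3-1 (AT1G31885) and NIP6-1 (AT1G80760), which passes boric acid in shoots. NIP1-2 averaged 15.2 CPM in HBI1-Ox and 16.5 CPM in Col-0, NIP3-1 1.87 CPM in HBI1-Ox and 2.28 CPM in Col-0, and NIP6-1 4.01 CPM in HBI1-Ox and 3.31 CPM in Col-0. None passed, with edgeR adjusted p-values of 0.409 or more. The 4 untested genes were at or near 0 reads. NIP2-1 (AT2G34390), a lactic acid channel of roots, had 5 and 5 reads in HBI1-Ox and 8 and 9 reads in Col-0. A long non-coding RNA gene on the opposite strand covers 1432 bases of NIP2-1, so these reads may belong to either gene. NIP4-1 (AT5G37810) had 0 reads in every library and NIP4-2 (AT5G37820) had 9 and 3 reads in HBI1-Ox and 10 and 7 reads in Col-0, both being known from pollen. NIP7-1 (AT3G06100), a boric acid channel of anthers, had 0 and 3 reads in HBI1-Ox and 2 and 3 reads in Col-0. Of 5 pollen markers, VGD1, VGDH1 and ADF10 were at 0 in all libraries, and the sum of the 5 was 1.51 and 1.55 CPM in HBI1-Ox and 2.73 and 1.99 CPM in Col-0.

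None of the 3 SIP genes was called by edgeR, DESeq2 or limma-voom, and 0 had an unadjusted edgeR p under 0.05. By edgeR 8.33% of all tested genes were called higher and 7.15% lower. SIP1-1 (AT3G04090) had 75.12 and 74.97 CPM in HBI1-Ox and 69.3 and 71.0 CPM in Col-0, a log2 change of 0.10 ± 0.06 with an edgeR adjusted p of 0.322. SIP2-1 (AT3G56950) had 21.1 and 25.9 CPM in HBI1-Ox and 24.2 and 27.7 CPM in Col-0 (log2 change -0.15 ± 0.12, edgeR adjusted p = 0.457). SIP1-2 (AT5G18290) averaged 5.48 CPM in HBI1-Ox and 6.54 CPM in Col-0 (edgeR adjusted p = 0.326). The summed level was 104.0 ± 3.24 CPM in HBI1-Ox and 102.6 ± 4.29 CPM in Col-0 (SD, n = 2 each), a difference within the spread of the libraries, whose sign was the opposite under total counts. SIP1-2 and SIP2-1 overlap genes on the opposite strand.

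The family also varies in the pore motif asparagine-proline-alanine, which most aquaporins carry in a pair of short loops. The annotated proteins of every PIP and TIP gene held 2 copies of the exact motif. NIP1-1, NIP1-2, NIP6-1, NIP7-1 and each SIP protein held 1, NIP5-1 held 0, and the remaining NIP proteins held 2. All 12 genes called higher thus encode proteins with both motifs, as do all PIP and TIP genes whether called or not.

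Windows before the start were searched for E-boxes in the whole family. Of the 35 windows of 250 bases before the start, 19 (54.3%) held CANNTG, against 55.3% of the windows of 26645 protein-coding genes. The form CACGTG, known as the G-box and included in CANNTG, was in 0 of the 35 and in 6.60% of all. Among the 12 genes called higher, PIP1-1, PIP1-2, PIP1-3, TIP2-1 and TIP4-1 held an E-box, and the windows of PIP2-4 and NIP1-1, which were lower, held none. Such a match is a description of these letters in this window.

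Genes for the membranes in which the channels sit were described beside them. Regulators and partners of aquaporin proteins came to 10 genes, among them the kinase OST1, the syntaxins SYP121 and SYP61 and the ubiquitin ligase RMA1. Of these 10, 0 were called in either direction (median log2 change -0.05), against 8.33% higher and 7.15% lower among all genes tested. A list this short would hold few calls at those shares, and none of the 10 reached 100 CPM. DESeq2 and limma-voom also called 0, an unadjusted edgeR p under 0.05 was reached by 1 that was higher and 2 that were lower, and with total counts 2 were called lower. Of 13 vacuolar proton pumps and ion transporters, 4 were higher and 0 lower, with a median of 0.21, and 2 were higher under total counts. Of the 9 at or above 100 CPM 3 were higher, a share near the 28.6% among all genes of that level. By adjusted p the 4 higher genes were led by the sodium-potassium/proton antiporters NHX1 and NHX2. NHX1 had 117 and 119 CPM in HBI1-Ox and 87.6 and 91.1 CPM in Col-0 (log2 change 0.40 ± 0.06, edgeR adjusted p = 0.0070). NHX2 lay under 100 CPM, with 13.2 and 14.0 CPM in HBI1-Ox and 9.37 and 9.02 CPM in Col-0 (0.56 ± 0.11, edgeR adjusted p = 0.0189). Next was the proton pump subunit VHA-A3, with 268 and 254 CPM in HBI1-Ox and 218 and 208 CPM in Col-0 (0.29 ± 0.06, edgeR adjusted p = 0.0225).

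All 3 plasma membrane proton pumps of the list were higher, each at or above 100 CPM, where 28.6% of all genes were. Under total counts 1 of the 3 was called, and 2 with the replicate number as a block. HA3 had 137 and 139 CPM in HBI1-Ox and 102 and 98.9 CPM in Col-0 (log2 change 0.45 ± 0.06, edgeR adjusted p = 0.0041). HA1 had 682 and 682 CPM in HBI1-Ox and 556 and 563 CPM in Col-0 (0.29 ± 0.05, edgeR adjusted p = 0.0138). HA2 had 1288 and 1291 CPM in HBI1-Ox and 1064 and 1127 CPM in Col-0 (0.23 ± 0.05, edgeR adjusted p = 0.0326). Of 3 borate exporters 1 was higher, AT3G62270, as were 8.33% of all tested genes and 28.6% of those at or above 100 CPM. AT3G62270, the 1 exporter at that level, had 145 and 142 CPM in HBI1-Ox and 73.6 and 79.6 CPM in Col-0 (log2 change 0.91 ± 0.07, edgeR adjusted p = 0.000584). With the HBI1-Ox libraries summed, or with either left out, 0 vacuolar genes and 0 plasma membrane pumps were called, and AT3G62270 was called in each. These lists were chosen with earlier results of these data known.

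Markers of tissues in the seedling were read beside these genes. Of 6 root endodermis markers 3 were lower (CASP2, CASP4 and CASP5), as were 7.15% of all tested genes. The summed level of the 6 was 174.5 and 164.0 CPM in HBI1-Ox and 194.2 and 199.2 CPM in Col-0. None of the 6 was called by DESeq2, with the HBI1-Ox libraries summed or with either left out. Of 5 root hair markers 0 were called by edgeR, DESeq2 or limma-voom, where edgeR called 8.33% of all tested genes higher. At an unadjusted edgeR p under 0.05, 1 was higher. Root hair sums were 137.5 and 131.2 CPM in HBI1-Ox and 131.0 and 116.1 CPM in Col-0. Of 4 green shoot markers, all at or above 100 CPM, 1 was higher (PSBO1), a share near the 28.6% among all genes of that level. Their sums were 37214 and 38427 CPM in HBI1-Ox and 34290.4 and 33308 CPM in Col-0. The part of root and shoot proportions in the falls of PIP2-4 and NIP1-1 and in the rises of the other members was not tested.

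The authors' deposited table of changed genes lists 3 of the 35 aquaporin genes. In the authors' deposited table the log2 change of HBI1-Ox over Col-0 is 0.70 for PIP2-6, 1.12 for TIP4-1 and -0.64 for NIP1-1. The smallest absolute log2 change among its 1256 genes is 0.559. PIP2-6, TIP4-1 and NIP1-1 were also the members called with the HBI1-Ox libraries summed. Both rest on the same data, so this is not an independent result. Among called members, only these 3 had an absolute log2 change above 0.559 in the fit as reported, and PIP2-1 came next at 0.554.

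**Figure D4:**
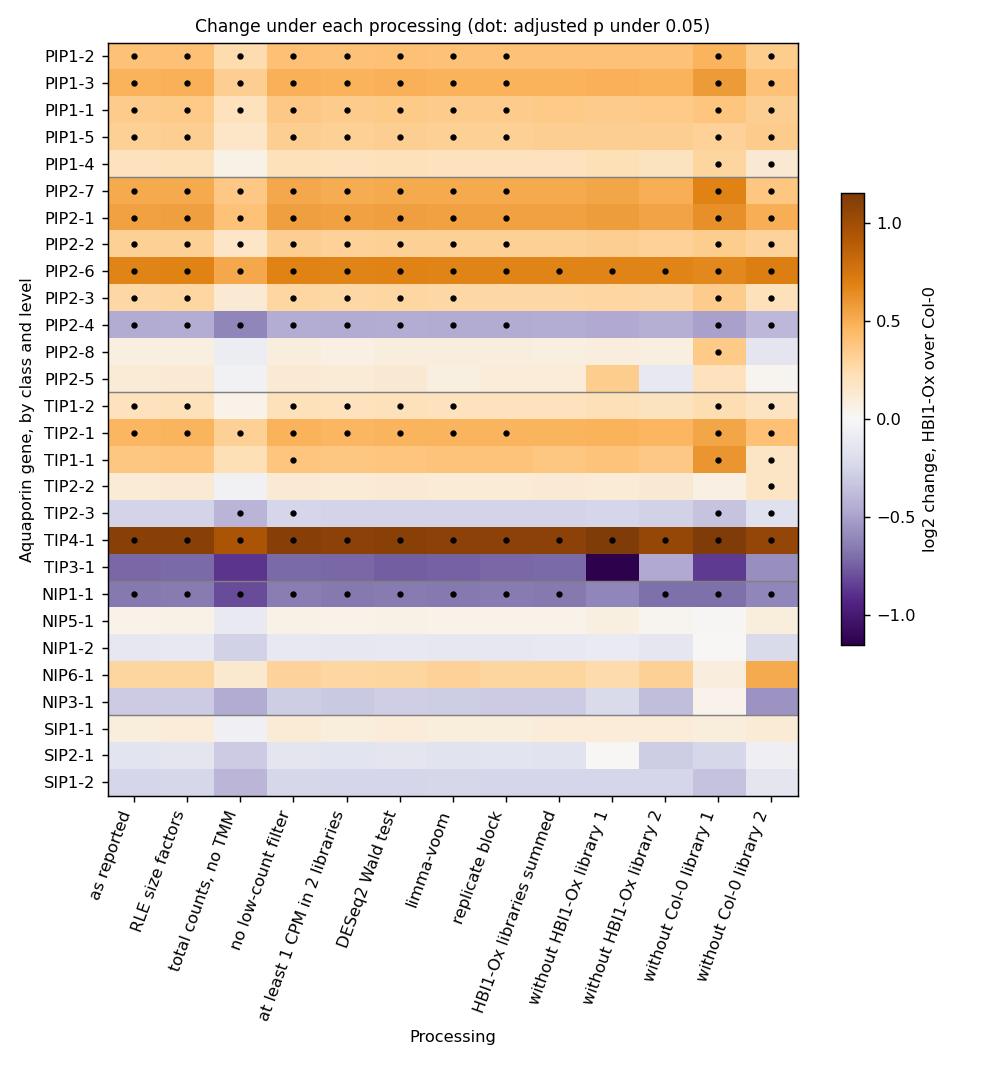
log2 change of each tested aquaporin gene (down the page) under each way of processing (across), with colour for the change of HBI1-Ox over Col-0 and a dot where the adjusted p was under 0.05. PIP2-6 and TIP4-1 carry a dot in every column, and the other rises lose theirs where the HBI1-Ox libraries are summed or 1 of them is left out.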

How the data were processed

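Total RNA of whole seedlings was extracted with the Spectrum kit, and barcoded libraries were made with a TruSeq RNA kit, per the labels' protocols. For each library the authors deposited a table of unnormalized counts of reads, as whole numbers, by gene. They also deposited log2 ratios, HBI1-Ox relative to Col-0, for a selection of genes. TopHat, DESeq and the build TAIR10 are named per the submitters' processing notes. The read counter, its strand setting and the selection of genes with log2 ratios do not appear in the sources used here. Rows that belong to no gene held 13.2% to 13.7% of the reads and were left out. Among them the row named ambiguous held between 166684 and 270594 reads per library. The row named alignment_not_unique held 0 in every library. Beyond these row names, the treatment of reads that match several genes is not given.

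Low counts were filtered with filterByExpr at a minimum count of 10 and a minimum total of 15. The counts of the 4 libraries were scaled by TMM, and HBI1-Ox was tested against Col-0 by the quasi-likelihood functions glmQLFit and glmQLFTest of edgeR 4.0.16 (R 4.3.3), with 2 residual degrees of freedom and no block. p-values were adjusted over all 20320 genes tested, with a threshold of 0.05. CPM were computed on TMM-scaled library sizes. Exon lengths, protein identities and windows before the annotated start came from the RefSeq TAIR10.1 genome and annotation, whose nuclear chromosomes have the lengths of TAIR10 (Biopython 1.88 for alignments). Standard errors came from the quasi-likelihood test, which takes in the spread between the 4 libraries, and SDs are between libraries. The floor of 3 reads for a count of 0 covers counting error only. The method was tested on simulated counts with a small set of changed genes and the same spread in both groups. That simulation did not copy the closeness of the HBI1-Ox libraries, so it does not cover this design in full.

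The members, lists, tests and alternatives were chosen with earlier results of these data known. Values in every library are given for called members, for the 2 members of each subfamily with the highest level per length and for members left out by the filter, and up to 3 called genes of each partner list. Other members given library by library (PIP1-4, PIP2-5, PIP2-8, TIP1-1, TIP2-2, TIP2-3 and TIP3-1) were chosen after their values were seen. Alternatives were RLE factors, total counts, no filter, a filter of 1 CPM in 2 libraries, DESeq2 1.42.0 and limma-voom (limma 3.58.1). Further ones were the replicate number as a block, each library left out, the HBI1-Ox libraries summed, and members with near-identical proteins summed.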

Additional observations from a re-analysis of the deposited data

How the results depend on the processing

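RLE factors, a filter of 1 CPM, DESeq2 and limma-voom each called the same 14 aquaporin genes as edgeR with TMM. Without the filter 13 were higher and 3 lower, TIP1-1 and TIP2-3 being added. The limits come from the libraries. With the HBI1-Ox libraries summed, 2 aquaporin genes were higher and 1 lower, and 307 genes in all were higher and 271 lower. When 1 library was left out, the fit took the spread of the lone remaining library from the pair of the other group. Aquaporin counts then ran between 2 and 15 higher and between 0 and 3 lower, and counts over all genes between 242 and 3516 higher and between 187 and 3009 lower. The low counts came without HBI1-Ox library 1 (242 and 187) or 2 (289 and 222), and the high ones without Col-0 library 1 (3516 and 3009) or 2 (3010 and 2773). With total counts 995 genes were higher and 3494 lower. DESeq2 called 844 genes lower. The cause was not tested.

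Under total counts the log2 change took the opposite sign for PIP2-5 (-0.037), PIP2-8 (-0.075), TIP2-2 (-0.0367), NIP5-1 (-0.10) and SIP1-1 (-0.053), none of them called. Log2 ratios of the class sums under total counts were 0.24 for PIP1, 0.34 for PIP2, 0.16 for TIP, -0.41 for NIP and -0.13 for SIP. Leaving out 1 library reversed PIP2-5 (-0.11, without HBI1-Ox library 2) and PIP2-8 (-0.14, without Col-0 library 2). Over the 4 such fits NIP1-2 ran between -0.22 and 0.0045, NIP3-1 between -0.55 and 0.040 (both highest without Col-0 library 1) and SIP2-1 between -0.29 and 0.00018 (highest without HBI1-Ox library 1). PIP2-8, also not called as reported, was 0.36 and called without Col-0 library 1.

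With the replicate number as a block 10 aquaporin genes were higher and 2 lower, and 1459 and 1337 genes in all. PIP2-3 (log2 change 0.28, edgeR adjusted p = 0.0506) and TIP1-2 (0.20, edgeR adjusted p = 0.125) were not called. Deviations of same-numbered libraries from their group means had a correlation of 0.000376 over 20320 genes. It cannot decide whether the numbers pair the libraries, since the HBI1-Ox libraries differed by little more than counting error. Their mean chi-square was 1.72, against 8.04 between the Col-0 libraries. No block was used because the labels do not say that a number marks a shared culture or day. Genes at a few reads, such as TIP1-3, TIP5-1, NIP4-1 and NIP7-1, lie below what this depth can compare.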
